A study of Mus musculus with 12 samples.

Results

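Superoxide dismutases turn superoxide, the radical that forms when an electron leaks onto oxygen, into hydrogen peroxide, and catalase breaks hydrogen peroxide down to water and oxygen. The enzymes work in different places: SOD1 is the copper-zinc enzyme of the cytosol and receives its copper from the chaperone CCS, SOD2 is the manganese enzyme of the mitochondrial matrix, SOD3 is a copper-zinc enzyme that is secreted and held by heparan sulfate in the extracellular matrix, and catalase sits in peroxisomes. In the brain, astrocytes carry much of the defence against hydrogen peroxide, and CD38, the enzyme removed in these mice, consumes NAD+ at the cell surface and in internal membranes.

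The family comprised 5 genes, Sod1, Sod2, Sod3, Ccs and Cat, of 20614 in the table, and all 5 were expressed in all 12 libraries. They were picked by name as the enzymes of superoxide and hydrogen peroxide removal and the chaperone of SOD1, and the set was drawn up around Sod3, whose level was low in Cd38-/- libraries. The Sod3 values below are therefore a description with no test, whereas the 4 relatives were chosen by function and are tested.

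The libraries came from astrocytes of male mice aged 12 to 14 months that were wild type (Cd38+/+, n = 3), heterozygous (Cd38+/-, n = 3) or null (Cd38-/-, n = 6) for Cd38, with no further treatment. A brain region holding the striatum, thalamus and substantia nigra, called midbrain in the study, was dissociated, endothelial cells, myelin with oligodendrocytes and CD11b+ microglia were taken out with beads, and astrocytes were then captured with beads against ACSA-2. The null allele is a global disruption, present in every cell from conception, so loss of Cd38 in astrocytes and in other cells cannot be told apart. It was made in embryonic stem cells of another strain and bred onto C57BL/6J, and because Sod3 lies on the same chromosome as Cd38, an effect of the Cd38 allele on Sod3 and an effect of neighbouring DNA that travels with it cannot be told apart in these libraries. In bulk RNA of this kind, fewer cells of a type and less RNA per cell cannot be told apart either. The labels do not say that each library came from a separate mouse, and p and q values measure the spread between these libraries.

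Levels are given in TPM, a relative abundance of transcripts that adjusts for their length and sums to 1000000 in each library, so levels of different genes can be set side by side. Differences between genotypes are on the scale of log2(TPM + 1) from limma, with their standard error (SE). A gene was called changed at a Storey q value (the expected share of false calls among genes called) under 0.05 over all genes tested and a change of at least 1.2-fold.

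Cd38 itself followed the labels. It was at 148.64, 120.04 and 104.88 TPM in the Cd38+/+ libraries, at 90.80, 90.70 and 90.36 TPM in the Cd38+/- libraries, and between 8.54 and 21.86 TPM in the 6 Cd38-/- libraries. The log2 difference was -2.96 (SE 0.28, q = 0.00116) in Cd38-/- against Cd38+/+ and -0.44 (SE 0.18, q = 0.226) in Cd38+/- against Cd38+/+. The value of a gene is summed over its transcripts, including exons that the disruption leaves in place.

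The Cd38+/+ libraries stood apart from the other 9. They held 13160 to 13516 genes above 0, against 16160 to 16327 in Cd38+/- and 15920 to 17906 in Cd38-/-, and of 11845 expressed genes 193 to 336 were listed at 0 in a Cd38+/+ library, against 4 to 14 in any other. The median SD of a gene over replicates was 0.494 on the log2 scale in Cd38+/+, 0.200 in Cd38+/- and 0.234 in Cd38-/-. Every difference against Cd38+/+ rests on these 3 libraries, and the comparison of Cd38-/- with Cd38+/- is the one that does not use them.

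Sod3 was lower in null astrocytes, and it overlapped between heterozygous and wild-type libraries with a somewhat lower heterozygous mean. The study reported Sod3 as downregulated in both the heterozygous and the null comparison. In the Cd38+/+ libraries it was at 52.92, 38.42 and 38.68 TPM, a mean of 43.3 ± 8.30 TPM (SD, n = 3). In the Cd38+/- libraries it was at 38.35, 38.84 and 28.74 TPM, a mean of 35.3 ± 5.70 TPM (SD, n = 3), so a pair of heterozygous libraries sat at the level of the lower wild-type ones. In the 6 Cd38-/- libraries its lowest value was 9.18, its median 17.1 and its highest 20.11 TPM, with a mean of 16.3 ± 3.74 TPM (SD, n = 6). The highest null library was below the lowest heterozygous library, whereas the ranges of the wild-type and heterozygous libraries overlapped.

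The log2 difference of Sod3 was -1.38 (SE 0.25) in Cd38-/- against Cd38+/+, the 31st lowest of 11722 genes tested. It was -1.10 (SE 0.21) in Cd38-/- against Cd38+/-, the 12th lowest of 11563 genes. In Cd38+/- against Cd38+/+ it was -0.29 (SE 0.25, 95% interval -0.86 to 0.29), rank 1966 from the lowest of 11763 genes. The median of all genes in that comparison was 0.18. These comparisons share libraries pairwise: the 2 against wild type use the same Cd38+/+ libraries, and the 2 with null libraries the same Cd38-/- libraries. Sod3 moved from above 60.5% of expressed genes by mean TPM in Cd38+/+ and 52.4% in Cd38+/- to above 26.6% in Cd38-/-. Each difference kept its sign when any 1 library was left out, ranging from -1.46 to -1.23 for Cd38-/- against Cd38+/+ and from -1.23 to -0.95 for Cd38-/- against Cd38+/-.

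**Figure D1:**
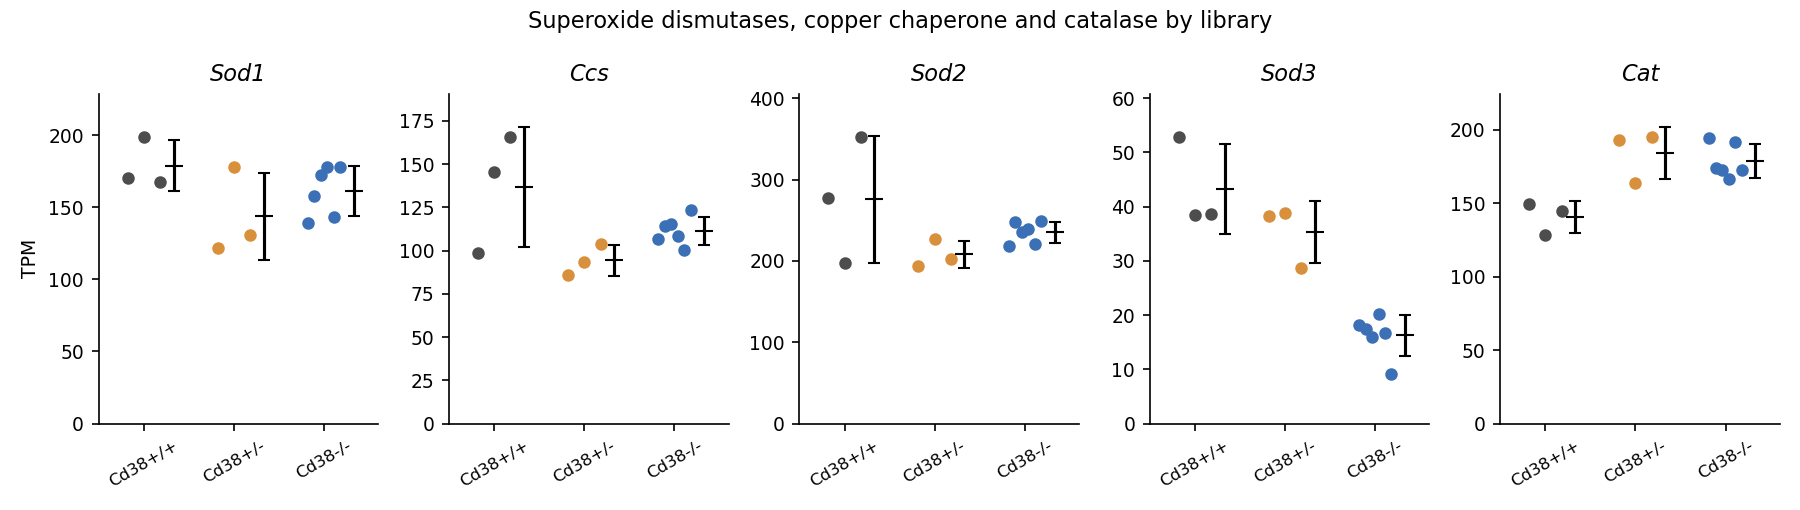
TPM of the 5 family members in each library, with a panel per gene and its own TPM axis. Points are libraries of Cd38+/+ (n = 3), Cd38+/- (n = 3) and Cd38-/- (n = 6), and bars give the mean and SD; Sod3 is at most 20.11 TPM in the null libraries and at least 28.74 TPM in the others, while Sod1, Ccs and Sod2 overlap between all genotypes.

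None of the 4 relatives of Sod3 was called changed in any of the 3 comparisons. For Cd38-/- against Cd38+/+, the call was made for 1 of the 5 members, Sod3, against 8.28% of all genes tested (6.42% higher and 1.86% lower), and 1 of the 4 relatives, Cat, passed an unadjusted p under 0.05, against 23.6% of all genes. Because Sod3 was chosen for its drop in null libraries, nothing is read from its part in any count of members here, against wild-type or heterozygous libraries. In Cd38+/- against Cd38+/+, limma called 0 of 5 members, against 0% of all genes, and at an unadjusted p under 0.05 it passed 1 of the 4 relatives, Cat, against 13.5% of all genes. For null against heterozygous libraries, limma called 0 of 5 members, against 0.0346% of all genes (0.0173% higher and 0.0173% lower), and 1 of the 4 relatives, Ccs, passed an unadjusted p under 0.05, against 11.2% of all genes.

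Sod1, the cytosolic dismutase, did not share the drop of Sod3. It was at 170.19, 199.11 and 167.69 TPM in Cd38+/+, at 122.05, 178.21 and 130.98 TPM in Cd38+/-, and in Cd38-/- its lowest, median and highest values were 139.08, 165 and 177.97 TPM. The 3 genotypes overlapped, and the lowest values were those of 2 heterozygous libraries. The log2 difference of Cd38-/- against Cd38+/+ was -0.15 (SE 0.13, 95% interval -0.43 to 0.13, limma q = 0.280), and the lower end of that interval is well short of the value of Sod3. For Cd38+/- against Cd38+/+ the difference of Sod1 was -0.33 (SE 0.19, 95% interval -0.76 to 0.10, limma q = 0.288).

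Ccs, the copper chaperone that activates SOD1, was uneven among the wild-type libraries. Its levels there were 98.57, 145.64 and 165.97 TPM, against 85.70, 93.44 and 103.89 TPM in Cd38+/-. In Cd38-/- they lay between 100.18 and 123.21 TPM with a median of 111 TPM, so all 6 null libraries fell inside the wild-type range. The log2 difference was -0.26 (SE 0.16, 95% interval -0.61 to 0.08, limma q = 0.191) in Cd38-/- against Cd38+/+. It was -0.50 (SE 0.22, 95% interval -1.004 to 0.000235, limma q = 0.234) in Cd38+/- against Cd38+/+, and 0.24 (SE 0.10, 95% interval 0.03 to 0.45, limma q = 0.291) in Cd38-/- against Cd38+/-, the opposite sign to Sod3. Without Cd38+/+ replicate 1, the library with the lowest wild-type level, Ccs passed the call in Cd38-/- against Cd38+/+ (log2 difference -0.48, limma q = 0.0234).

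Sod2, the mitochondrial dismutase, was the most abundant member in each genotype by mean TPM. The wild-type libraries were at 277.59, 197.21 and 352.94 TPM and the heterozygous at 194.26, 226.91 and 202.71 TPM. The 6 null libraries lay close together, with a lowest value of 218.82, a median of 237 and a highest of 249.22 TPM, all within the wild-type range. The log2 difference was -0.19 (SE 0.16, 95% interval -0.53 to 0.15, limma q = 0.273) in Cd38-/- against Cd38+/+ and 0.18 (SE 0.09, 95% interval -0.01 to 0.37, limma q = 0.340) in Cd38-/- against Cd38+/-. For Cd38+/- against Cd38+/+ the difference of Sod2 was -0.37 (SE 0.21, 95% interval -0.86 to 0.12, limma q = 0.293). The Cd38-/- against Cd38+/+ value for Sod2 turned on single wild-type libraries: it was -0.41 (limma q = 0.0347) without Cd38+/+ replicate 2 and 0.0056 without Cd38+/+ replicate 3.

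Catalase moved in the opposite direction to Sod3 by its point estimates against wild type, and in heterozygous as well as null libraries. Cat was at 149.58, 128.60 and 144.51 TPM in Cd38+/+ and at 192.99, 163.89 and 195.39 TPM in Cd38+/-. In Cd38-/- its lowest, median and highest values were 166.49, 173 and 194.44 TPM. Every heterozygous and every null library was above every wild-type library, and heterozygous and null libraries overlapped.

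The log2 difference of Cat was 0.34 (SE 0.11, 95% interval 0.10 to 0.58) in Cd38-/- against Cd38+/+, with a limma q of 0.0558 that just missed the call. It was 0.38 (SE 0.16, 95% interval 0.02 to 0.74, limma q = 0.225) in Cd38+/- against Cd38+/+ and -0.04 (SE 0.09, 95% interval -0.24 to 0.16, limma q = 0.655) in Cd38-/- against Cd38+/-. The median of all genes was itself 0.15 in the first of these comparisons and 0.18 in the second, and under median-ratio scaling, which brings the Cd38-/- against Cd38+/+ median to 0.03, Cat differed by 0.22 (limma q = 0.145). Cat passed the call in 5 of 22 alternative settings for Cd38-/- against Cd38+/+, among them without Cd38+/+ replicate 1 (q = 0.0370) and without Cd38+/+ replicate 3 (q = 0.0292).

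By non-overlap of libraries alone, 2 of 5 members, Sod3 lower and Cat higher, separated Cd38-/- from Cd38+/+, against 11.8% of all genes tested (8.21% higher and 3.62% lower). Only Cat among the 5 separated Cd38+/- from Cd38+/+, against 22.5% of all genes (15.5% higher and 6.94% lower), and only Sod3 separated Cd38-/- from Cd38+/-, against 5.73% of all genes (2.85% higher and 2.88% lower). Sod1, Ccs and Sod2 separated no pair of genotypes.

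**Figure D2:**
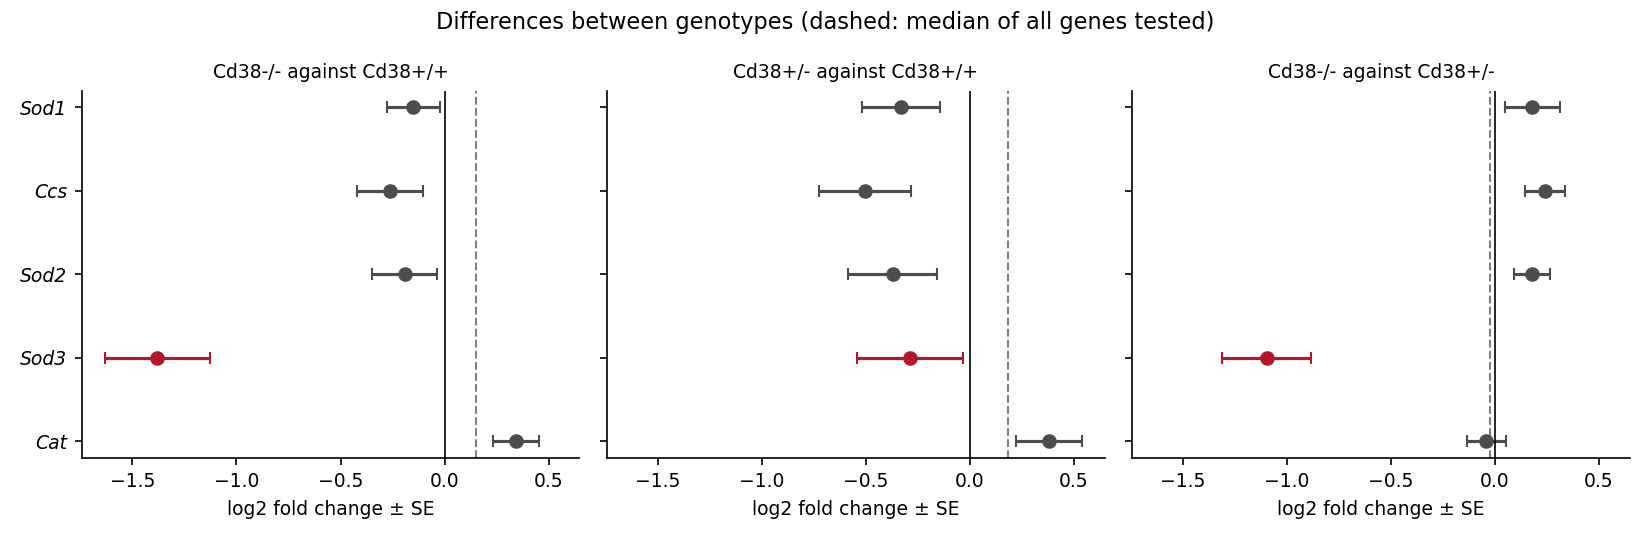
Difference of log2(TPM + 1) for the 5 family members in each of the 3 comparisons, with bars that give the SE of the limma fit and a dashed line at the median of all genes tested. Sod3 lies at -1.38 in Cd38-/- against Cd38+/+ and at -1.10 in Cd38-/- against Cd38+/-, apart from its 4 relatives, whose values run from -0.50 to 0.38; Sod3 was chosen for this difference, so its bars are a description.

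The order of the members by mean TPM changed at the position of Cat. In Cd38+/+ it was Sod2 (276 ± 77.9), Sod1 (179 ± 17.5), Cat (141 ± 10.9), Ccs (137 ± 34.6) and Sod3 (43.3 ± 8.30), where the ranges of Sod2 and Sod1, and of Cat and Ccs, overlapped. In Cd38+/- it was Sod2 (208 ± 16.9), Cat (184 ± 17.5), Sod1 (144 ± 30.2), Ccs (94.3 ± 9.13) and Sod3 (35.3 ± 5.70), where Cat overlapped with both Sod2 and Sod1. In Cd38-/- it was Sod2 (235 ± 13.0), Cat (179 ± 11.5), Sod1 (161 ± 17.4), Ccs (111 ± 7.98) and Sod3 (16.3 ± 3.74, all SD, n = 6), where only Cat and Sod1 overlapped. Sod3 was the least abundant member in each genotype, and its range did not overlap with that of Ccs, its neighbour in the order.

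Ratios between members within a library do not depend on the TPM total, but they still depend on which cells supplied each transcript. The ratio of Sod3 to Sod1 was lower in null libraries alone. In Cd38+/- against Cd38+/+, though, the log2 difference was -0.33 (SE 0.19) for Sod1 and -0.29 (SE 0.25) for Sod3. A difference that both genes share would not show in their ratio. Per 100 TPM of Sod1 there were 24.5 ± 6.03 TPM of Sod3 in Cd38+/+ (SD, n = 3; 19.3 to 31.1), 25.1 ± 5.52 in Cd38+/- (SD, n = 3; 21.8 to 31.4) and 10.2 ± 2.76 in Cd38-/- (SD, n = 6; 5.16 to 13.0). Relative to Sod1, then, wild-type and heterozygous libraries covered nearly the same range and all 6 null libraries lay below it. Of the summed TPM of Sod1, Sod2 and Sod3, the secreted enzyme made up 8.77 ± 1.83% in Cd38+/+, 9.16 ± 1.49% in Cd38+/- and 3.97 ± 0.983% in Cd38-/-.

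The sum of the 3 dismutases, of which Sod3 is the smallest part, had its lowest mean in Cd38+/-, as Sod1 and Sod2 did. It was 498 ± 62.3 TPM in Cd38+/+ (434.74 to 559.31), 387 ± 49.5 TPM in Cd38+/- (354.66 to 443.96) and 413 ± 27.3 TPM in Cd38-/- (376 to 436.91), with overlapping ranges. The balance between the mitochondrial and the cytosolic enzyme overlapped between genotypes, at 1.58 ± 0.559, 1.47 ± 0.173 and 1.47 ± 0.107 TPM of Sod2 per TPM of Sod1, and so did that of the chaperone to its client, at 0.767 ± 0.208, 0.673 ± 0.137 and 0.694 ± 0.0530 TPM of Ccs per TPM of Sod1. Catalase per TPM of Sod1 was 0.796 ± 0.130 in Cd38+/+ (0.646 to 0.879), 1.33 ± 0.359 in Cd38+/- (0.920 to 1.58) and 1.12 ± 0.198 in Cd38-/- (0.935 to 1.40), so that both mutant genotypes lay above wild type with no overlap.

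**Figure D3:**
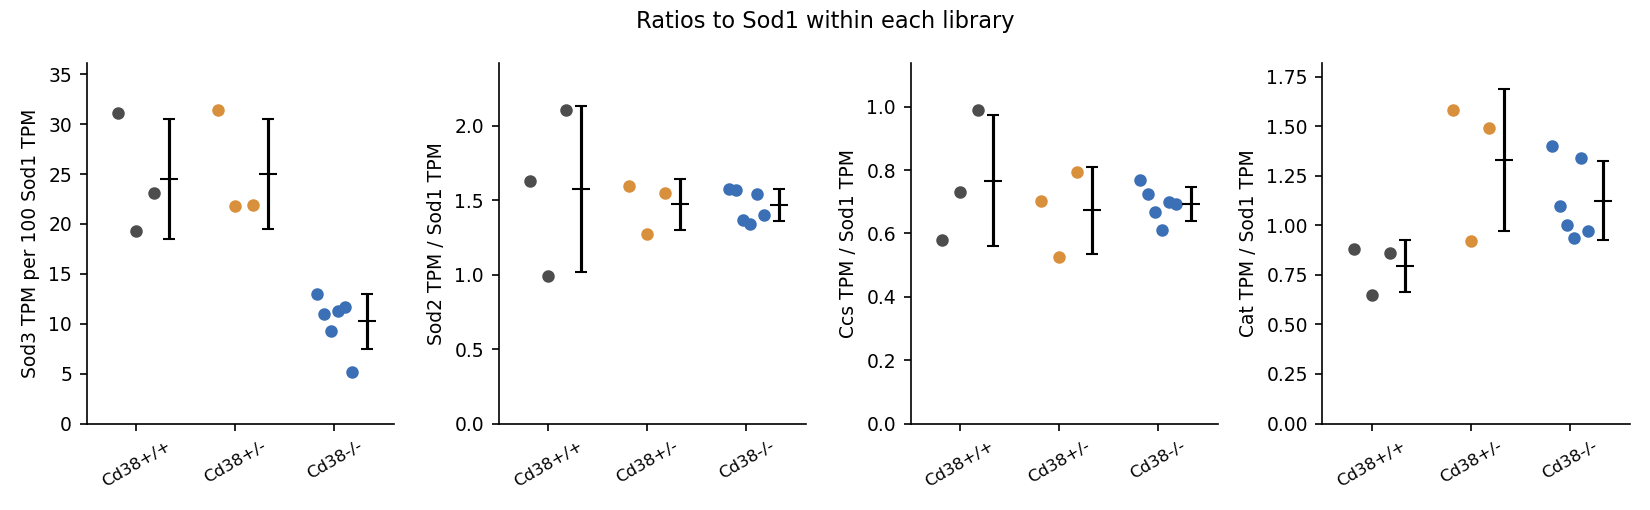
Ratios between family members within each library, with a panel per ratio; points are libraries of Cd38+/+ (n = 3), Cd38+/- (n = 3) and Cd38-/- (n = 6), and bars give the mean and SD. Sod3 per 100 TPM of Sod1 is 5.16 to 13.0 in the null libraries and 19.3 to 31.4 in the other 6, while Sod2 and Ccs per TPM of Sod1 overlap between genotypes.

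The members lie on 5 different chromosomes of the GRCm38 build with GENCODE vM21 gene models. Sod1 (ENSMUSG00000022982) is on chromosome 16 (90220754 to 90226329, plus strand), Ccs (ENSMUSG00000034108) on chromosome 19 (4825366 to 4839332, minus strand), Sod2 (ENSMUSG00000006818) on chromosome 17 (13006846 to 13040063, plus strand) and Cat (ENSMUSG00000027187) on chromosome 2 (103453849 to 103485160, minus strand). Sod3 (ENSMUSG00000072941) is on chromosome 5 (52363791 to 52371418, plus strand), the chromosome of Cd38 (ENSMUSG00000029084; 43868553 to 43912375, plus strand), and 8.45 Mb lie between the 2 genes. Sod3 is the only member that shares a chromosome with the disrupted gene.

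In null libraries, genes between Cd38 and Sod3 differed less from the other genotypes than either of them. Of 17 genes listed there, 12 could be tested. In Cd38-/- against Cd38+/-, 0 of 12 were called by limma, against 0.0346% of all genes, and 2 passed an unadjusted p under 0.05, against 11.2%. Between these genotypes 2 (16.7%, against 5.73% of all genes), Med28 higher and Lap3 lower, did not overlap. The median log2 difference was 0.03, against -0.02 over all genes, in a range from -0.35 to 0.57. Against Cd38+/+, 1 of the 12 (8.33%, against 8.28% of all genes) was called in Cd38-/-, Dhx15, an RNA helicase of the splicing machinery, which was higher (log2 difference 0.83, SE 0.19, limma q = 0.0232). Dhx15 was at 28.5 ± 8.14 TPM in Cd38+/+, 52.8 ± 8.33 in Cd38+/- and 50.4 ± 4.69 in Cd38-/-, and its call was lost in 7 of 22 alternative settings. In Cd38+/- against Cd38+/+ 0 of 12 were called by limma, against 0% of all genes, and 3 passed an unadjusted p under 0.05, against 13.5%. There 4 (33.3%, against 22.5% of all genes) did not overlap, with Adgra3, Dhx15 and Lap3 higher and Med28 lower.

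In a wider window, from 10 Mb before Cd38 to 20 Mb after it, 77 genes were tested in Cd38-/- against Cd38+/-. Cd38 had the lowest log2 difference (-2.52) and Sod3 the second lowest (-1.10), and the other 75 ran from -0.57 (Sel1l3) to 0.71 (Poln). In Cd38-/- against Cd38+/+ the spread was wider. Cd38 was at -2.96 and Sod3 at -1.38, and the others ran from -0.97 (Jakmip1) to 2.00 (0610040J01Rik). Ccdc149, which starts 8.51 Mb from Cd38 against 8.50 Mb for Sod3, was at 1.88 in that comparison. The window was set with the values of these genes known.

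**Figure D4:**
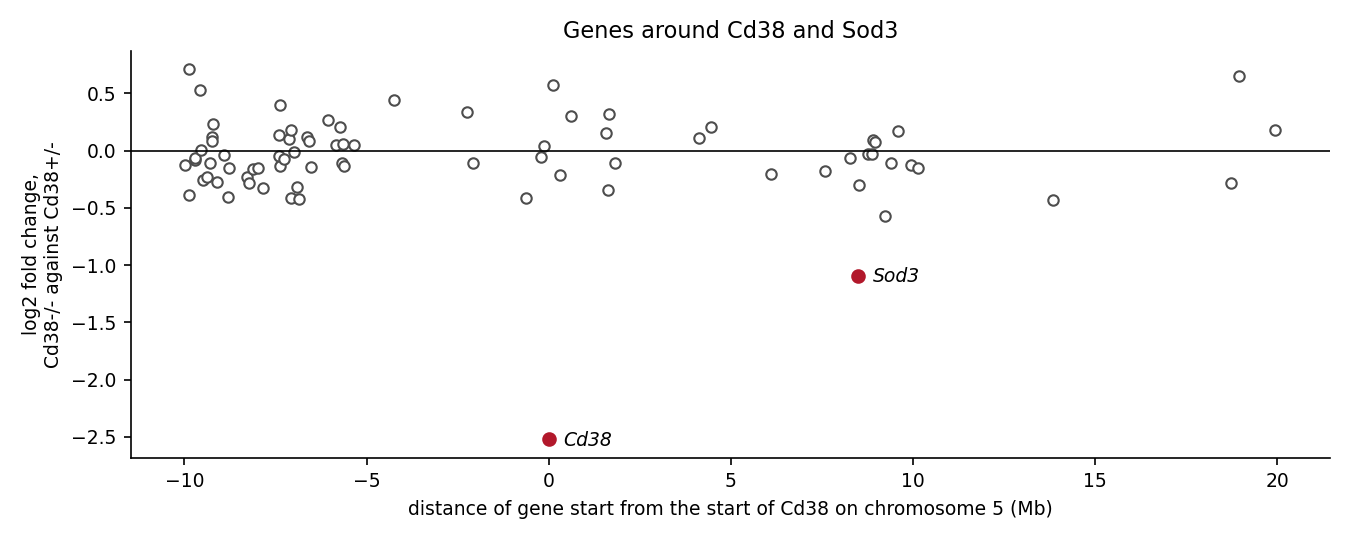
Difference of log2(TPM + 1) in Cd38-/- against Cd38+/- for the 77 tested genes of chromosome 5 in the window from 10 Mb before to 20 Mb after Cd38, plotted against the distance of the gene from Cd38 in Mb. Cd38 at -2.52 and Sod3 at -1.10 are the lowest points, and the other genes lie between -0.57 and 0.71.

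Genes whose levels over the 12 libraries ran most like those of Sod3 were found by the root mean square difference of their centred log2(TPM + 1) values from those of Sod3, over 11844 expressed genes. The nearest 5 were Dram2 (0.349), Slc35f6 (0.355), Chst12 (0.397), Purg (0.406) and Slc16a6 (0.421). Dram2 was at 62.4 ± 23.4 TPM in Cd38+/+, 46.9 ± 1.62 in Cd38+/- and 26.7 ± 1.89 in Cd38-/-. Slc35f6 was at 102 ± 5.84, 102 ± 15.5 and 48.8 ± 11.5 TPM in the same order, with a step in null libraries alone. Chst12, a sulfotransferase of chondroitin chains, was at 106 ± 10.1, 68.6 ± 2.72 and 52.8 ± 10.8 TPM, with a heterozygous level between the others. Slc35f6 and Chst12 also lie on chromosome 5, so 2 of the 5 nearest were on that chromosome, which carries 6.60% of expressed genes. Neither was among the 77 tested genes of the window around Cd38, and a link to their position was not tested.

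None of the relatives of Sod3 was among its nearest genes, and neither was Cd38. Values were centred but not scaled, so this distance counts the size of a difference as well as its shape. Cd38 was also lowest in null libraries, but its difference was larger (-2.96 against -1.38 for Sod3, Cd38-/- against Cd38+/+). A rank here therefore does not say which gene is most like Sod3 in shape. Sod2 ranked 2960 of 11844 (0.705 on the log2 scale), Sod1 3316 (0.716), Ccs 4191 (0.746), Cd38 5417 (0.786) and Cat 5445 (0.787), each with more genes behind it than before it in the order.

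Enzymes and carriers around the family were examined as 8 lists, of which 67 genes are reported: producers of superoxide and of hydrogen peroxide, peroxidases, copper and manganese handling, partners of extracellular SOD, peroxisomal import, and regulators of the antioxidant response. Of these, limma called 0 of 55 tested in Cd38-/- against Cd38+/+, 0 of 55 in Cd38+/- against Cd38+/+ and 0 of 54 in Cd38-/- against Cd38+/-. The shares of all genes called were 8.28%, 0% and 0.0346%, so the last 2 comparisons left almost no room for a call. An unadjusted p under 0.05 was passed by 8, 4 and 2 of the listed genes, against 23.6%, 13.5% and 11.2% of all genes. The median log2 difference over the listed genes was 0.04, 0.07 and -0.05 in the 3 comparisons, against 0.15, 0.18 and -0.02 over all genes.

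The NADPH oxidases, which make superoxide outside the cell where SOD3 acts, were mostly at low levels: 4 of 14 listed genes of superoxide production could be tested, the most abundant was the membrane subunit Cyba at a mean of 98.8 TPM, and the catalytic subunit Cybb reached at most 1.09 TPM. Cybb, Ncf1, Ncf4 and Nox4 were listed at 0 in all Cd38+/+ libraries. The peroxidases, which compete with catalase for hydrogen peroxide, were all tested, and Prdx6 was the most abundant at a mean of 3320 TPM. In each comparison 0 of 11 were called, against the shares of all genes given above. Of the copper handling genes, which supply both SOD1 and SOD3, 0 of 10 were called, against the same shares. The chaperone Atox1 was at 261 ± 31.9 TPM in Cd38+/+, 156 ± 5.65 in Cd38+/- and 184 ± 36.2 in Cd38-/-. The most abundant gene of each other list, by mean TPM over the 12 libraries, was Smox (312), a spermine oxidase that releases hydrogen peroxide, Fbln5 (179), a fibulin that tethers SOD3 to tissue, Pex2 (108) of the peroxisomal import machinery that catalase depends on, Nfe2l2 (97.5), which encodes the antioxidant regulator Nrf2, and the metal transporter Slc11a2 (42.2); none of these 5 was called in any comparison.

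Non-overlap among these 67 genes was near the share over all genes, and below it in each comparison. In Cd38-/- against Cd38+/+ it held for 9.09% of those tested, against 11.8% of all genes, with Ero1l and Keap1 higher and Paox, Slc31a2 and Sco1 lower. In Cd38+/- against Cd38+/+ it held for 20.0% (6 higher and 5 lower), against 22.5% of all genes. In Cd38-/- against Cd38+/- it held for 3.70%, against 5.73% of all genes, namely Cox11 and Slc30a10, both lower.

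**Figure D5:**
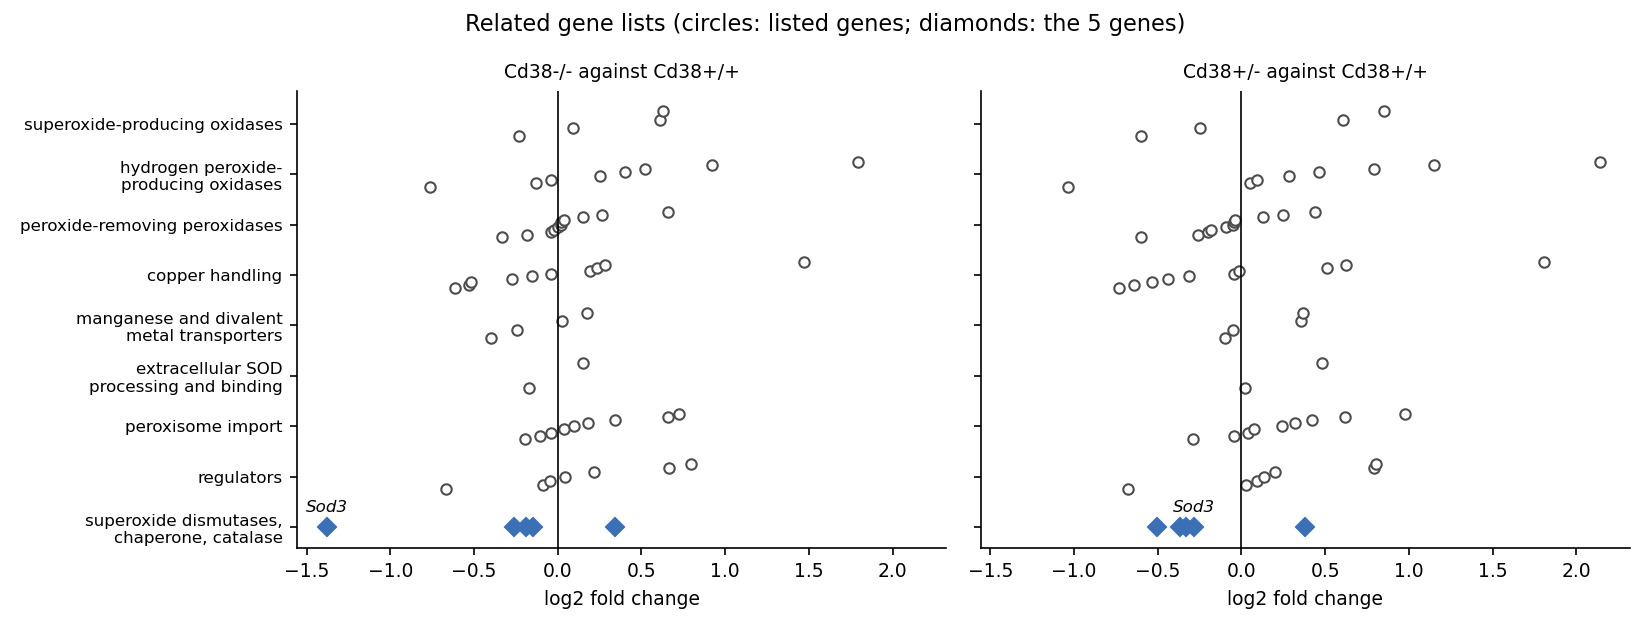
Difference of log2(TPM + 1) in Cd38-/- against Cd38+/+ (left) and Cd38+/- against Cd38+/+ (right) for the genes of the 8 lists around the family; each circle is a tested gene of the 67 reported, none of them called, and diamonds are the 5 members. Sod3 at -1.38 lies to the left of all circles in the left panel.

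Markers of astrocytes summed to 10425.2 to 14895.8 TPM in Cd38+/+, 15604.8 to 17505.9 in Cd38+/- and 11998.4 to 15031.5 in Cd38-/-, so the labelled cell type was present in every library. Markers of mural cells and fibroblasts, which also make SOD3 in vessels, summed to 157.42 to 277.51, 157.07 to 317.37 and 163.14 to 224.19 TPM, with full overlap between genotypes. Endothelial markers summed to 178.82 to 710.77, 138.73 to 286.38 and 158.02 to 439.84 TPM. The ranges of both vessel lists overlapped between all genotypes, and the part of vessel cells in the values of Sod3 was not tested.

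Red cell genes, whose cells are rich in catalase, summed to 7770.34 to 34711.4 TPM in Cd38+/+, 3228.01 to 6452.88 in Cd38+/- and 3805.46 to 15378.1 in Cd38-/-, with every wild-type library above every heterozygous one, the reverse of Cat. Oligodendrocyte markers summed to 1289.47 to 7176.3, 3084.24 to 10958 and 3169.87 to 17781.8 TPM, and choroid plexus markers to 34.74 to 288.86, 140.32 to 7159.55 and 178.77 to 1876.49 TPM. Microglial markers summed to 4.49 to 17.93 TPM in Cd38+/+, with Cx3cr1 and Tmem119 listed at 0 in all 3 libraries, against 20.59 to 24.81 in Cd38+/- and 17.42 to 38.11 in Cd38-/-. Neuronal markers summed to 35.59 to 57.4, 25.14 to 44.36 and 33.69 to 96.31 TPM, and ependymal markers to 1335.28 to 2807.74, 1441.78 to 1770.8 and 1876.21 to 2901.3 TPM. Astrocyte and microglial markers were higher in every heterozygous than in any wild-type library, as Cat was, and the part of any of these cells in the values of Cat was not tested. Astrocyte markers were also higher in every heterozygous than in any null library, as Sod3 was, but overlapped between wild-type and null libraries. Ependymal markers were lower in every heterozygous than in any null library. The part of these cells in the values of Sod3 was not tested either.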

How the data were processed

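Per the labels and the study's methods, RNA of ACSA-2+ astrocytes was depleted of ribosomal RNA, amplified with a low-input kit and sequenced in pairs on a NovaSeq. The authors trimmed reads with Trim Galore 0.6.4, aligned them with STAR 2.7.1a to mm10 and estimated gene levels with RSEM 1.2.28. The deposited values are TPM with 2 decimals, 1 column per library, which sum to 1000000, so read depth is unknown and no counting interval is given. TPM are relative: a transcript that takes a larger share lowers all others.

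Genes that averaged over 5 TPM in 1 or more of the genotypes being compared entered limma 3.58.1 under R 4.3.3 on log2(TPM + 1), with a mean-variance trend, the libraries of the compared genotypes alone, and Storey q values over all genes tested. The 95% intervals are those of limma and are not adjusted. Positions are from GENCODE vM21, and the script was tested on simulated data. Named were the 5 members, Cd38, the 5 genes nearest to Sod3, called genes of the lists and of the interval on chromosome 5, and the most abundant gene of a list; other named genes were chosen after their values were seen. Members, lists and tests were chosen with earlier results of these data known, and Sod3 for its level. Replicate numbers were not used to pair the libraries in the main fit. Alternatives were other pseudocounts, filters, scalings, q values, weights, samples in the fit, a replicate block, removal of a transcript length and GC trend, and leaving out each library. A gene of the lists is not reported here and enters none of their counts. No protein or promoter sequences are shown.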

Additional observations from a re-analysis of the deposited data

Results flagged for a closer look

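Sod3 in Cd38-/- replicate 6 was at 9.18 TPM, apart from the other 5 null libraries, of which the next lowest was at 16.04 TPM; the gap was 0.628 of the range of the group. Such a gap turns up by chance in about 1 in 20 groups. Cd38 was also lowest in that library, at 8.54 TPM, without standing apart from the rest of the group. Without it, the log2 difference of Sod3 was -1.23 (SE 0.22) in Cd38-/- against Cd38+/+ and -0.95 (SE 0.14) in Cd38-/- against Cd38+/-, values given as a description.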

How the results depend on the processing

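Sod3 kept its sign under every alternative run, with log2 differences from -1.56 to -1.19 in Cd38-/- against Cd38+/+, -0.57 to -0.14 in Cd38+/- against Cd38+/+ and -1.23 to -0.90 in Cd38-/- against Cd38+/-. Because Sod3 was chosen for its drop, nothing is read from its part in the counts of members that follow. Members called in Cd38-/- against Cd38+/+ (1 as reported) numbered 2, Sod3 and Cat, with no filter on low levels (q of Cat 0.0208), with quantile scaling (0.0467) and with all 12 libraries in one fit (0.0306). They numbered 0 with library quality weights, 0 with a replicate block and 0 with a replicate block plus removal of the length and GC trend. They ranged from 1 to 3 when 1 library was left out, with 3 (Ccs, Sod3 and Cat) without Cd38+/+ replicate 1, 2 (Sod2 and Sod3) without Cd38+/+ replicate 2 and 2 (Sod3 and Cat) without Cd38+/+ replicate 3. In Cd38+/- against Cd38+/+ the count was 2, Ccs (q = 0.0476) and Cat (q = 0.0378), with all 12 libraries in one fit, and 0 to 0 when 1 library was left out. In Cd38-/- against Cd38+/- it was 2, Sod1 (0.31, q = 0.00461) and Sod3, with quality weights, and 0 to 1 when 1 library was left out, 1 being Sod3 without Cd38-/- replicate 4. Signs turned for Ccs (0.022 in Cd38-/- against Cd38+/+ with the replicate block and length and GC trend removed), Sod2 (0.0056 in the same comparison without Cd38+/+ replicate 3, in a range from -0.41 to 0.0056 when 1 library was left out) and Cat (0.0042 in Cd38-/- against Cd38+/- without Cd38+/- replicate 3, in a range from -0.12 to 0.0042). The call of Cd38 was lost with quality weights in Cd38-/- against Cd38+/+ (-3.14, q = 0.109) and without Cd38+/- replicate 3 in Cd38-/- against Cd38+/- (q = 0.0595). The labels do not say whether same-numbered libraries were handled together. The deviations of their genes from the genotype means correlated at -0.33 to 0.46, too few values to tell. Both ends came from Cd38-/- against Cd38+/-, at replicate 2 and replicate 1. The replicate block used the 3 numbers that the genotypes share. The causes were not tested.

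Over all genes, calls in Cd38-/- against Cd38+/+ numbered 970 as reported, 2283 with no filter, 1855 with all libraries in one fit, 326 with Benjamini-Hochberg values, 1 with weights, 2 with the replicate block and 1 with the block and trend removal, and 74 (without Cd38-/- replicate 2) to 3119 (without Cd38+/+ replicate 3) when 1 library was left out. The share of them that were higher was 77.5% as reported, 58.2% with median-ratio and 50.5% with quantile scaling. In Cd38+/- against Cd38+/+ 0 calls became 663 with no filter, 1471 with all libraries, 30 with weights, 9 without the trend, 4 with the block, 1 with the block and trend removal and 10 without Cd38+/+ replicate 3. In Cd38-/- against Cd38+/- 4 became 3120 with weights and 93 without Cd38-/- replicate 4. Weights were estimated with warnings that they had not converged. Read depth is unknown, so its part in the precision of the members could not be given.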

Other observations

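Among the genes around the family, Keap1, the sensor that holds the antioxidant regulator Nrf2 in check, was at 38.8 ± 19.5 TPM in Cd38+/+ (SD, n = 3), 61.6 ± 8.52 in Cd38+/- and 61.0 ± 4.67 in Cd38-/- (SD, n = 6), with every mutant library above every wild-type one. Sco1, which passes copper to cytochrome oxidase in mitochondria, was at 13.8 ± 7.46, 7.81 ± 0.567 and 8.02 ± 0.639 TPM in the same order, with every mutant library below every wild-type one. Neither passed the call (limma q = 0.0761 for Keap1 and 0.146 for Sco1 in Cd38-/- against Cd38+/+). Both were chosen after their values were seen, from the genes whose libraries did not overlap. In Cd38-/- against Cd38+/+ non-overlap held for 9.09% of the tested genes around the family, against 11.8% of all genes.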
